A study of Mus musculus with 6 samples.

Results

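Integrins and laminins are the receptor and ligand families that fasten cells to basement membranes, and 37 genes of these families were described here in embryonic mouse palate. The genes were chosen by name: every gene symbol for an integrin alpha subunit, an integrin beta subunit or a laminin alpha, beta or gamma chain. This gave 18 integrin alpha subunit genes, 8 integrin beta subunit genes and 11 laminin chain genes, of 23420 genes measured. The tissue was the presumptive anterior hard palate of C57BL/6 embryos at E14.5, profiled by RNA sequencing in 3 control and 3 mutant libraries. Control embryos were Shox2Cre/+;Nkx2.5F/F and mutant embryos were Shox2Cre/-;Nkx2.5F/F. Both groups therefore carried 1 Cre allele at the Shox2 locus and a homozygous floxed Nkx2.5 gene, and the mutants had a null Shox2 allele where the controls had a wild-type one. Shox2 encodes a homeobox transcription factor, and the controls are titled wild type although they keep a single normal copy of it. Nkx2.5 can be deleted only in cells that have used the Shox2-driven Cre. The comparison asks what loss of Shox2 changes in this tissue.

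An integrin is a dimer of 1 alpha and 1 beta subunit that spans the cell membrane and ties the matrix, or a ligand on another cell, to the cytoskeleton inside. A laminin is a cross-shaped trimer of 1 alpha, 1 beta and 1 gamma chain that polymerises into the sheet of a basement membrane. In the palate, basement membranes separate the shelf mesenchyme from the oral and nasal epithelium that covers it and surround vessels, nerves and muscle. Some integrin subunits occur mainly on blood cells, where they carry adhesion and immune contacts.

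Levels are in CPM, the count of a gene relative to its library's total after scaling by the trimmed mean of M-values, and are given for replicates 1, 2 and 3 in that order. Fold changes are log2 of mutant over control, with adjusted p from the quasi-likelihood test of edgeR with Benjamini-Hochberg adjustment over 16604 tested genes, and a gene was called at an adjusted p under 0.05. How many embryos went into a library is not stated in the labels, so a p-value reflects only how far these libraries scatter, which may be technical.

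Shox2 stood at 88.2, 68.1 and 81.6 CPM in the controls and at 5.3, 4.12 and 3.13 CPM in the mutants (log2 fold change -4.24, SE 0.21, adjusted p = 0.000137). Nkx2-5 had 12 counts in the controls together and 0 in the mutants, too few for a test. Totals ran from 81950407 to 134813429 counts in the controls and from 52668242 to 53331397 in the mutants, so depth and genotype cannot be told apart. No 2 libraries of a group agreed within sampling noise. The genotypes separated on the first principal component (78.4% of the variance), and mutant replicate 1 stood apart on the second (8.4%). All 12 palate mesenchyme markers listed were detected in both groups. Of all tested genes, 45.8% were called, 24.1% higher and 21.7% lower in the mutants.

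Among the integrin and laminin genes, rises outnumbered falls. Of the 36 that were tested, 18 (50%) were called higher in the mutants, against 24.1% of all tested genes, and 4 (11.1%) were called lower, against 21.7%. The other 14 were not called. Rises beyond 2-fold made up 14 of the 36 (13.9% of all tested genes) and falls beyond 2-fold 1 of the 36 (3.39% of all tested genes). The median log2 fold change was 0.50 over these genes and 0.0 over all tested genes. The mutant libraries lay wholly above the controls for 20 of them (29.7% of all tested genes did) and wholly below for 3 (29.2% of all tested genes did), while 58.9% of all tested genes were apart in 1 direction or the other. The 4 that fell were Itga9, Itga10, Itgb1 and Itgb5, and every laminin chain that was called was higher. Without replicate 1 of both groups the counts were 19 and 4, against 27.3% and 26.8% of all genes then tested. The count of falls moved more. It was 1 without control replicate 2 (16.1% of all tested genes were then called lower), without control replicate 3 (16.8%) or without mutant replicate 2 (15.4%), and 2 without mutant replicate 1 (21.6%).

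**Figure D1:**
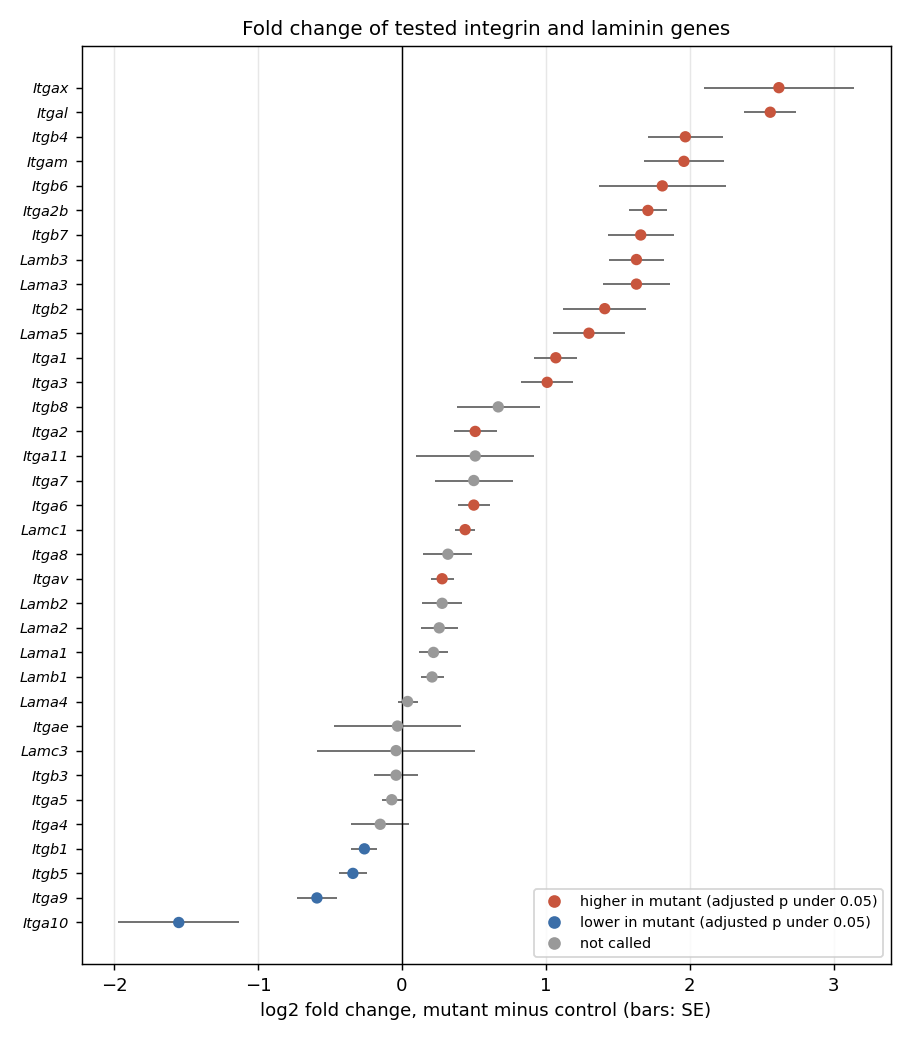
Each point is the log2 fold change of a tested integrin or laminin gene on the horizontal axis, mutant minus control, with bars of 1 SE. Red points were called higher, blue points lower and grey points were not called. Itgax and Itgal are at the top (2.62 and 2.56) and Itga10 is at the bottom (-1.55).

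Lama3 and Lamb3, chains of laminin-332, the laminin that anchors stratified epithelium to the connective tissue beneath it, rose together. Lama3, its alpha chain, stood at 58.3, 32.7 and 52.6 CPM in the controls and at 184, 128 and 134.5 CPM in the mutants, a rise from 47.9 ± 13.4 to 149 ± 30.5 CPM (SD, n = 3 each; log2 fold change 1.63, SE 0.23, adjusted p = 0.00162). Lamb3, its beta chain, stood at 44.6, 33.4 and 50.9 CPM and then at 163, 114.5 and 122 CPM (1.63, SE 0.19, adjusted p = 0.000737). For both chains control replicate 2 was the lowest library, mutant replicate 1 was the highest, and the groups did not overlap. Lama5, the alpha chain of the laminins in many epithelial and vascular basement membranes, followed the same order, with 165, 86.3 and 138.2 CPM in the controls and 399, 286 and 275 CPM in the mutants (1.30, SE 0.25, adjusted p = 0.00492). The ratio of Lama3 to Lamb3 per kilobase of exon was 0.681 ± 0.108 in the controls and 0.687 ± 0.00709 in the mutants.

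Promoter sequences of Lamb3 and Lama5 are shown because both genes rose with non-overlapping groups and both have an entry in RefSeq (GRCm38.p6). The stretches cover the 250 bases before the annotated start of transcription, 5′ to 3′ on the gene's strand, at chr1:193301744-193301993 on the plus strand for Lamb3 and chr2:180225860-180226109 on the minus strand for Lama5. Capitals mark matches to the ETS motif GAGGAA or its reverse complement TTCCTC and to the SP1 box GGGCGG or its reverse complement CCGCCC. The shorter GGAA was not searched on its own and is not marked.
Lamb3: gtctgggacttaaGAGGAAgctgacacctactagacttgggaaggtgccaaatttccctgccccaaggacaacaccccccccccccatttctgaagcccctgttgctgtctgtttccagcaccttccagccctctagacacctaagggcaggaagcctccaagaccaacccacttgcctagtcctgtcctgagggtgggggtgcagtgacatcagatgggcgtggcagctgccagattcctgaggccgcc
Lama5: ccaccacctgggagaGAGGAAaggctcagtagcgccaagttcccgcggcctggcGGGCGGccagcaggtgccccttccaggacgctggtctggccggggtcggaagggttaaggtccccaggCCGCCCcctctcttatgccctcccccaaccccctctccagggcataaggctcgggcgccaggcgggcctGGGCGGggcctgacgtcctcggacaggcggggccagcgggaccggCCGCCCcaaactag
The Lamb3 stretch held 1 GAGGAA motif, 237 bases before the start. RefSeq lists a second Lamb3 start further downstream, and the 250 bases before it (not shown, since 171 of them lie in an exon) held none of the 6 motifs searched. The Lama5 stretch held 1 GAGGAA motif, 235 bases before the start, and 4 SP1 boxes. Its GC content was 72.4% against 58.8% for Lamb3.

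Across the families, 23 of the 37 genes had a RefSeq promoter entry, with 26 windows in all. The ETS motif GAGGAA was in 13 of the 26 windows and in 23.3% of all 32851 windows of that length. Among genes called higher it was in 7 of 14 windows, among genes called lower in 1 of 4 and among genes not called in 5 of 8. The SP1 box was in 9 of 26 windows (32.7% of all windows), the RUNX motif TGTGGT in 2 (14%), the AP-1 motif TGANTCA in 1 (6.75%), the GATA motif AGATAA in 1 (9.99%) and the TATA box TATAAA in none (12.4%), each searched on both strands. A match describes letters in a window and shows no binding.

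The remaining laminin chains had smaller fold changes. Lamc1, the gamma chain of most laminins, was the only one of them called, from 296, 309 and 309 CPM to 402, 439 and 398 CPM (0.44, SE 0.07, adjusted p = 0.00238), with no overlap of the groups. Lamb1, the beta chain of many laminins, stood at 341, 364 and 332 CPM in the controls and 433, 393 and 369 CPM in the mutants (0.21, SE 0.08, adjusted p = 0.079). Its mutant libraries were all above its controls by a small margin, and with libraries scaled by size alone it was called higher (adjusted p = 0.0322). Lama1, the alpha chain of early embryonic basement membranes, was likewise a little higher in each mutant than in each control, with 19.6, 17.4 and 17.4 CPM against 21.3, 21.1 and 21 CPM (0.22, SE 0.10, adjusted p = 0.105).

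Chains of mesenchymal, muscle and vessel basement membranes overlapped between the groups. Lama4, found in vessel walls and mesenchyme, stood at 232, 249 and 243 CPM in the controls and 235, 269.8 and 243 CPM in the mutants (0.04, SE 0.07, adjusted p = 0.66). Lama2, the alpha chain around muscle fibres and nerves, stood at 42.2, 43.5 and 48.0 CPM and at 46.3, 64.3 and 49.1 CPM (0.26, SE 0.13, adjusted p = 0.148). Lamb2, a beta chain of vessel and synaptic laminins, had 113, 154 and 152 CPM against 190.3, 167.5 and 152 CPM (0.28, SE 0.14, adjusted p = 0.131). Lamc3, a rarer gamma chain, varied more between replicates than between genotypes, with 6.7, 19.4 and 23.6 CPM in the controls and 6.5, 21.5 and 20.4 CPM in the mutants. Replicate 1 was the low library of both groups for Lamc3, and its log2 fold change was -0.04 (SE 0.55, adjusted p = 0.959).

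**Figure D2:**
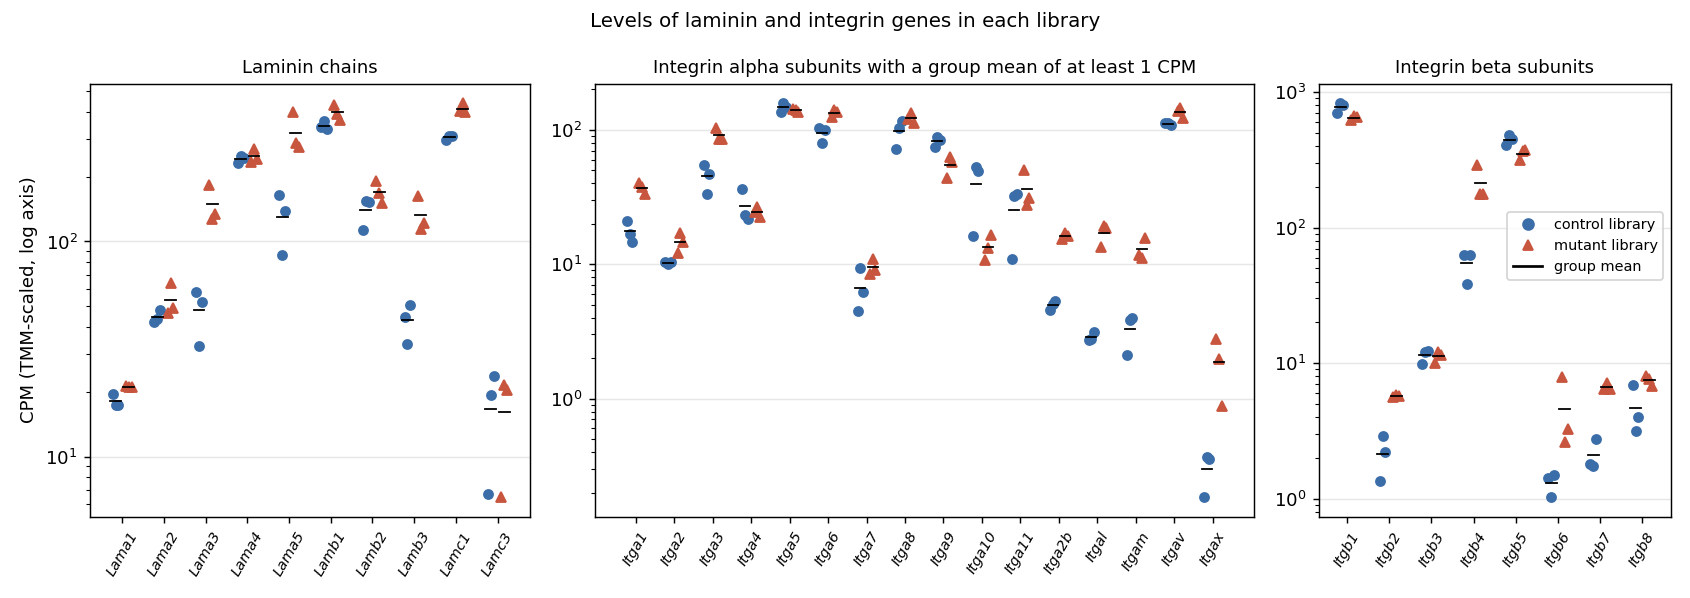
Points are the CPM of each gene in each library on a log axis, blue circles for the 3 controls and red triangles for the 3 mutants, with group means as black bars. Lama3, Lama5 and Lamb3 lie apart between the groups, Lama4 overlaps, and both groups hold 1 low library for Lamc3. Itgad and Itgae, which did not reach a group mean of 1 CPM, are not drawn.

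The make-up of the laminin transcripts differed between the groups. Shares are of the CPM per kilobase of exon within each class of chain, given as mean ± SD over 3 libraries, and are described without a test. Among alpha chains, Lama4 went from 50 ± 7.08% to 30.7 ± 4.64%, Lama5 from 27.7 ± 6.02% to 41.0 ± 4.07%, and Lama3 from 10.9 ± 2.07% to 20.2 ± 2.08%. Lama2 held 6.79 ± 0.797% and then 4.85 ± 1.15%, and Lama1 held 4.64 ± 0.371% and then 3.23 ± 0.323%. The order of the alpha chains in the mutants depends on the length used. With the length of the longest transcript in place of all exons, Lama4 remained the largest alpha chain there (45.4%, with 30.7% for Lama5).

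Lamb3 made up 10.2 ± 2.28% of the beta chains in the controls and 22.7 ± 2.13% in the mutants, with Lamb1 at 54.3 ± 3.52% and then 45.7 ± 1.61%. Lamb1 stayed the largest beta chain in every library.

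**Figure D3:**
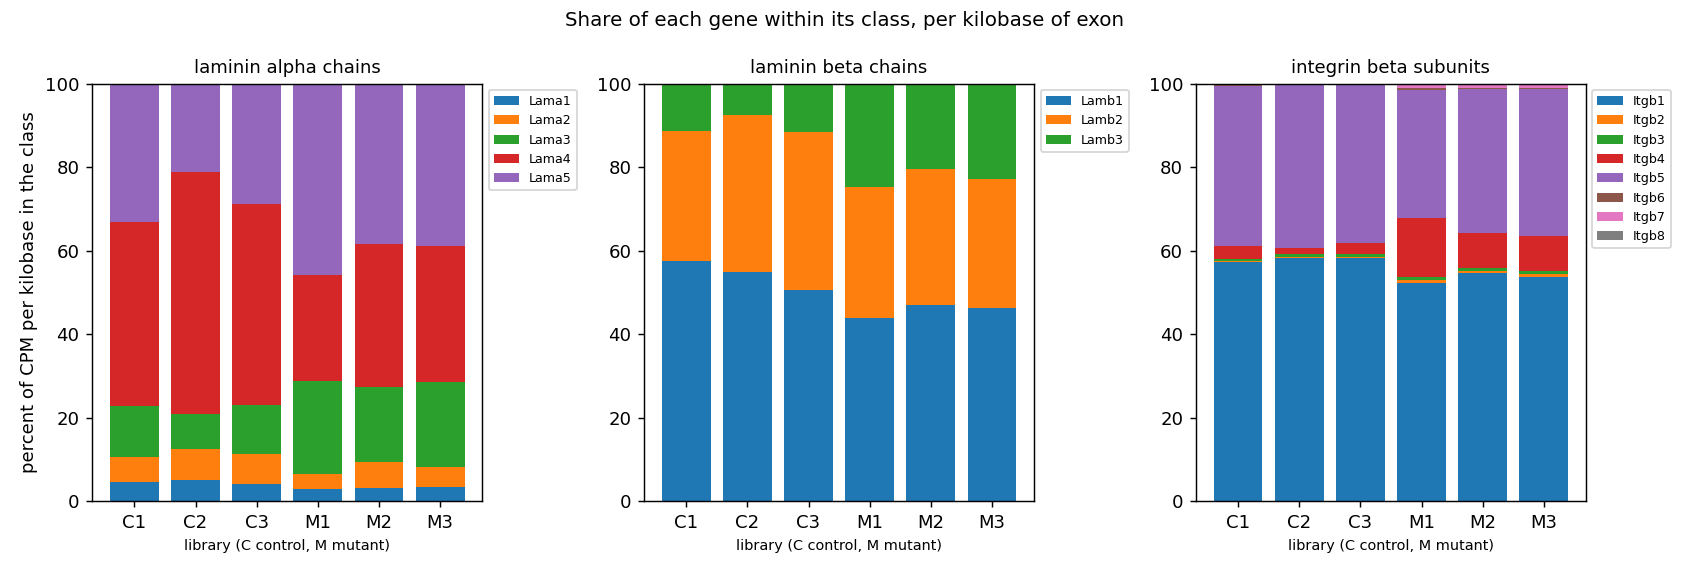
Stacked bars give the percent of each gene in the summed CPM per kilobase of exon of its class, for controls C1 to C3 and mutants M1 to M3. Lama3, Lama5, Lamb3 and Itgb4 take larger shares in each mutant than in each control, and Lama4 takes smaller ones.

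The laminin-binding integrins include the epithelial receptor pair of laminin-332. Itgb4, the beta subunit that pairs with Itga6 in hemidesmosomes, rose from 63.2, 38.5 and 62.4 CPM to 291, 176 and 176 CPM, that is from 54.7 ± 14 to 214 ± 66.5 CPM (log2 fold change 1.97, SE 0.26, adjusted p = 0.00129). Mutant replicate 1 was the highest library and the groups were far apart. Itga6, which also pairs with Itgb1, rose less, from 102, 79.6 and 100.2 CPM to 123, 140.0 and 135.5 CPM (0.50, SE 0.11, adjusted p = 0.00812). Per kilobase, Itgb4 stood at 0.796, 0.623 and 0.801 of Itga6 in the controls and at 3.03, 1.62 and 1.67 of it in the mutants. The ratio was higher in every mutant than in every control, but whether it passed 1 depends on the length used. With the longest transcript of each gene it was 0.336 to 0.432 in the controls and 1.64, 0.872 and 0.899 in the mutants.

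Itga3, the other main epithelial laminin receptor, rose from 54.9, 33.4 and 46.8 CPM to 102, 84.9 and 85.8 CPM (1.01, SE 0.18, adjusted p = 0.00348), with no overlap. Itga7, the laminin receptor of muscle fibres, stood at 4.5, 9.33 and 6.26 CPM in the controls and 8.43, 10.9 and 9.03 CPM in the mutants (0.50, SE 0.27, adjusted p = 0.172). The groups overlapped through control replicate 2, and without that library Itga7 was called higher (0.81, adjusted p = 0.0356). Muscle markers were counted beside it, with 10 of 14 tested called lower, against 21.7% of all tested genes, and none higher. Their summed level was 17.2 to 107 CPM in the controls and 10.1 to 10.6 CPM in the mutants, with Myf5 and Ckm at 0 there. Their part in the Itga7 values was not tested.

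Other hemidesmosome genes rose beside Itgb4. Of the 6 listed, 5 were called higher, against 24.1% of all tested genes, and none lower (median 1.19). Col17a1, the transmembrane collagen of the hemidesmosome, rose by 2.34 (SE 0.23, adjusted p = 0.000429), and Krt5 and Krt14, the keratins that it ties to the membrane, rose by 2.30 (SE 0.25) and 1.46 (SE 0.23). Krt5 and Krt14 are also in the epithelial list below. Plec, which encodes the linker plectin, rose by 0.93 (SE 0.11). Dst, whose epithelial product is a second linker, had a log2 fold change of 0.30 (SE 0.13, adjusted p = 0.1) and was not called.

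Epithelial markers rose over the same libraries. All 18 listed genes were called higher, against 24.1% of all tested genes. The list had a median log2 fold change of 1.54, and none of its genes was at 0 in either group. Their summed level was 1291 to 2133 CPM in the controls and 6736 to 7669 CPM in the mutants, led by Krt5, Krt15 and Krt14. In such bulk tissue, fewer or more cells of a type and less or more RNA per cell cannot be told apart. Beside the mean log2 level of those markers (0.5 CPM added), the mutants differed from the controls by -0.10 for Lama3, -0.13 for Lamb3, -0.42 for Lama5, 0.20 for Itgb4 and -0.39 for Itgb6. The same difference was -0.72 for Itga3 and -1.24 for Itga6, with every mutant below every control for both. Markers of ciliated and airway epithelium rose as well, 7 of 7 tested, with sums of 27.7 to 126 CPM in the controls and 469.7 to 505 CPM in the mutants and Scgb1a1 at 0 in both groups. The part of both marker lists in these changes was not tested.

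**Figure D4:**
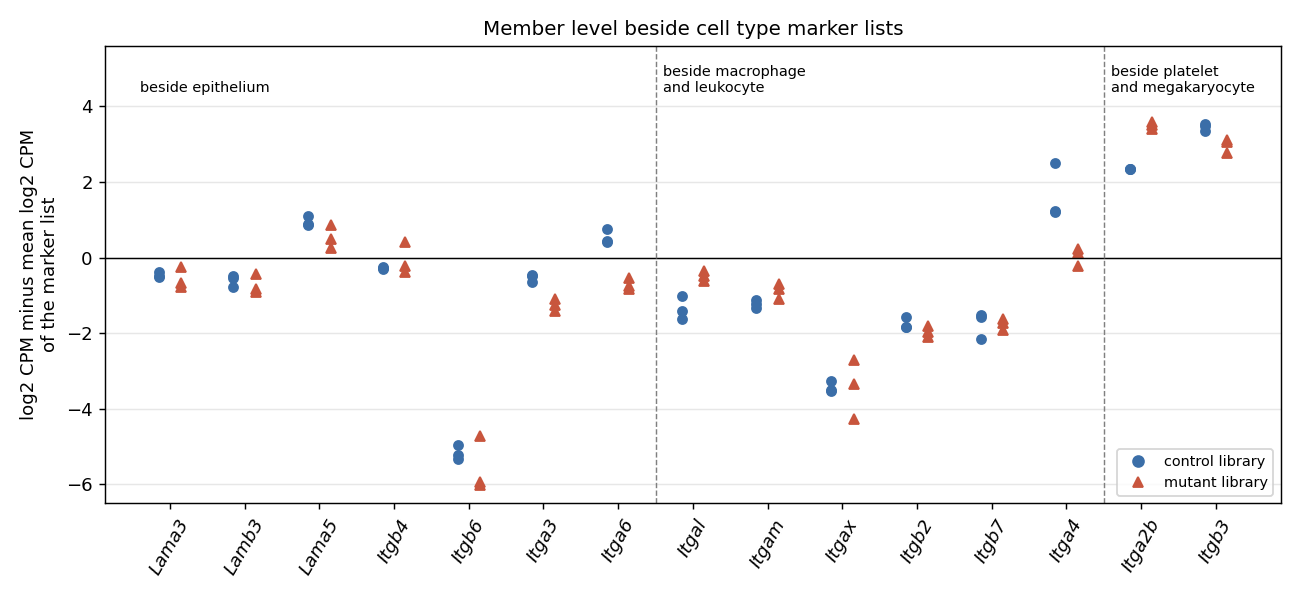
Each point is the log2 CPM of a gene in 1 library minus the mean log2 CPM of a marker list in that library. For both, 0.5 CPM was added before the log. Blue circles are controls and red triangles are mutants. Dashed lines part the genes set beside 18 epithelial, 16 macrophage and leukocyte, and 10 platelet and megakaryocyte markers. Lama3, Lamb3 and Itgb4 overlap between the groups. Itga3, Itga6, Itga4 and Itgb3 are lower, and Itgal, Itga2b and, narrowly, Itgam higher in each mutant than in each control.

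Of 5 leukocyte integrin alpha subunits, 4 were tested. Itgal, Itgam and Itgax were called higher (75% of those tested, against 24.1% of all tested genes). Itgae was not called and Itgad was not tested. Itgax and Itgal had the highest fold changes of all tested members. Itgal, the alpha subunit of LFA-1, rose from 2.75, 2.76 and 3.15 CPM to 13.4, 19.2 and 18.5 CPM (log2 fold change 2.56, SE 0.18, adjusted p = 0.000234). Itgam, the alpha subunit of the complement receptor Mac-1, rose from 2.11, 3.83 and 3.98 CPM to 11.7, 11.2 and 15.7 CPM (1.96, SE 0.28, adjusted p = 0.00157). In both cases every mutant was well above every control. Itgax, the CD11c subunit of dendritic cells and some macrophages, was scarce, at 0.186, 0.367 and 0.355 CPM in the controls and 2.8, 1.96 and 0.875 CPM in the mutants (2.62, SE 0.52, adjusted p = 0.00568). Its mutant libraries were spread widely but stayed above the controls.

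The beta partners of these subunits rose too. Itgb2, which pairs with Itgal, Itgam and Itgax, went from 1.34, 2.92 and 2.2 CPM to 5.63, 5.86 and 5.73 CPM (1.41, SE 0.29, adjusted p = 0.00701). Itgb7, the partner of Itga4 and Itgae on lymphocytes and mast cells, went from 1.81, 1.75 and 2.76 CPM to 6.43, 7.1 and 6.48 CPM (1.66, SE 0.23, adjusted p = 0.00151). The mutants were alike for both beta subunits and lay above all controls. Per kilobase, Itgal stood at 0.686 ± 0.259 of Itgb2 in the controls and at 1.37 ± 0.233 of it in the mutants.

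Itgam and Itgax are neighbours on chromosome 7 and their promoters are shown because both genes rose and each has a RefSeq entry. The stretches are chr7:128062390-128062639 for Itgam and chr7:128129300-128129549 for Itgax, both on the plus strand (GRCm38.p6). Capitals mark the ETS motif GAGGAA and the SP1 box as above and, in Itgax, the AP-1 motif TGANTCA and the GATA motif AGATAA.
Itgam: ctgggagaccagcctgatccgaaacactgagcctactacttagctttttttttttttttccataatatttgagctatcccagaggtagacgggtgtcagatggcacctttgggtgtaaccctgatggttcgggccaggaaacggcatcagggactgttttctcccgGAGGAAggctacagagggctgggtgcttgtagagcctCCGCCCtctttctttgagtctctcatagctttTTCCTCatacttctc
Itgax: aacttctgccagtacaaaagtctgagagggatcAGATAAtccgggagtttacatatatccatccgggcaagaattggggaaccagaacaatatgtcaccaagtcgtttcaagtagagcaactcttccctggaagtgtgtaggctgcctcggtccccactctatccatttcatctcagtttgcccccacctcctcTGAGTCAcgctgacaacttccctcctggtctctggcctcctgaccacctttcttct
The Itgam stretch held GAGGAA motifs on either strand 84 and 15 bases before the start, with an SP1 box at 47 bases. The Itgax stretch held no GAGGAA motif, and its AP-1 and GATA matches lay 56 and 217 bases before the start. Neither stretch held a RUNX motif or a TATA box.

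Macrophage and leukocyte markers rose in the same libraries. Of 16 listed, 15 were called higher, against 24.1% of all tested genes, and none lower (median 1.62). None was at 0 in either group. Their summed level was 124 to 202 CPM in the controls and 482 to 585.5 CPM in the mutants, led by Mrc1, Csf1r and Lyz2. Beside their mean log2 level (0.5 CPM added) the mutants differed from the controls by 0.35 for Itgam and 0.87 for Itgal. The difference was 0.0 for Itgax, -0.21 for Itgb2 and -0.01 for Itgb7. For Itgal every mutant was above every control on that scale, and narrowly so for Itgam. The 0.5 CPM added exceeds the level of Itgax in every control, so its 0.0 understates its rise. In the edgeR fit the log2 fold change of Itgax was 2.62, against the list median of 1.62. Of 10 lymphocyte markers listed beside Itgal, 5 could be tested and none was called. Their sum was 9.13 to 11.4 CPM in the controls and 8.72 to 9.32 CPM in the mutants, with Cd3e and Ms4a1 at 0 in the controls and Cd8a at 0 in the mutants. The part of the macrophage markers in the leukocyte integrin values was not tested.

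Itgae, the CD103 subunit of mucosal lymphocytes, had group means under 1 CPM, with 0.569, 0.693 and 0.868 CPM in the controls and 1.05, 0.666 and 0.372 CPM in the mutants (-0.03, SE 0.44, adjusted p = 0.963). Itgad, another partner of Itgb2, had 10 counts in the controls together and 8 in the mutants, and was not tested. Expression of Itgad was therefore barely detectable at this depth in either group.

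Itga2b, the alpha subunit of the platelet fibrinogen receptor, rose with little spread between replicates, from 4.59, 5.03 and 5.28 CPM to 15.5, 17.2 and 16.1 CPM (log2 fold change 1.71, SE 0.13, adjusted p = 0.000234). Its partner Itgb3, which also pairs with Itgav on osteoclasts and vessels, stood at 9.87, 12.1 and 12.3 CPM in the controls and 9.99, 12.0 and 11.5 CPM in the mutants (-0.04, SE 0.15, adjusted p = 0.859). The ranges of Itgb3 almost coincided, so Itga2b per Itgb3 went from 0.471 ± 0.0283 to 1.58 ± 0.0900 per kilobase. Of 9 platelet and megakaryocyte markers tested, 3 (33.3%, against 24.1% of all tested genes) were called higher and none lower. Among the 3 were Pf4 (1.73, SE 0.26) and Ppbp (2.86, SE 0.58). The other 6 did not pass, and Gp9 (-1.10), Gp1bb (-0.30), Gp5 (-0.47) and Clec1b (-1.13) had log2 fold changes below 0, the Clec1b mutants all lying under its controls. The summed level of the list was 7.28 to 11.1 CPM in the controls and 23.5 to 31.7 CPM in the mutants, with Gp6 at 0 in the mutants. Without Pf4 and Ppbp, the sum of the other 8 markers was 4.11 to 4.86 CPM in the controls and 4.43 to 4.93 CPM in the mutants. Beside the mean log2 level of all 10 markers, Itga2b was still higher in the mutants by 1.16, whereas Itgb3 differed by -0.49. The part of these markers was not tested. Osteoclast markers, which bear on Itgb3, were called lower for 6 of 10, against 21.7% of all tested genes, and higher for 1. Their summed levels were 173.5 to 311 CPM in the controls and 109 to 124 CPM in the mutants. Their part in the Itgb3 values was not tested either.

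The collagen-binding alpha subunits, all partners of Itgb1, moved in different directions. Itga1, a receptor for basement membrane collagen IV, rose from 21.1, 16.9 and 14.7 CPM to 40.1, 37.6 and 33.3 CPM (log2 fold change 1.07, SE 0.15, adjusted p = 0.00145), with wide separation of the groups. Itga2, a collagen receptor of epithelium and platelets, rose from 10.4, 9.97 and 10.3 CPM to between 12.2 and 17.0 CPM (0.51, SE 0.15, adjusted p = 0.0269). The groups of Itga2 did not overlap, but its call was lost without control replicate 2 (adjusted p = 0.0837), control replicate 3 (0.0735), mutant replicate 2 (0.0973) or mutant replicate 3 (0.0684). With the replicate number as a block the adjusted p for Itga2 was 0.0514.

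Itga10, the collagen II receptor of cartilage, fell, with 16.1, 52.8 and 49.7 CPM in the controls and 10.8, 13.2 and 16.5 CPM in the mutants (-1.55, SE 0.42, adjusted p = 0.0202). Control replicate 1 was low for Itga10 and lay just under mutant replicate 3, so the groups overlapped. The call was lost without control replicate 2 (adjusted p = 0.0613), control replicate 3 (0.0599), mutant replicate 1 (0.0657) or mutant replicate 2 (0.0684), and with limma-voom (0.0807). Itga11, a collagen I receptor of fibroblasts, stood at 11, 32.1 and 33.1 CPM in the controls and 49.9, 27.4 and 31.2 CPM in the mutants (0.51, SE 0.41, adjusted p = 0.351). Replicate 1 was the lowest control and the highest mutant for Itga11, and without it in both groups the log2 fold change was -0.16. Per kilobase, Itga10 stood at 1.52 ± 0.0974 of Itga11 in the controls and 0.404 ± 0.166 of it in the mutants.

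Skeletal markers were counted beside these genes. Of 12 chondrocyte markers, 3 (25%) were called lower, near the 21.7% of all tested genes, and none higher. The 3 were Col2a1, the main cartilage collagen (-1.71, SE 0.20), Col9a1 (-1.07, SE 0.35) and Col11a2 (-3.43, SE 0.64). The other 9 were not called, and the list median was -0.22. The chondrocyte sum was 447 to 899 CPM in the controls, with replicate 1 the lowest, and 378 to 479 CPM in the mutants. Of 13 osteoblast markers tested, 11 were called lower and none higher, with Mepe at 0 in the mutants. The osteoblast sum, which Col1a1 and Col1a2 dominate, was 5539 CPM in control replicate 1, 16741.5 and 14099 CPM in the other controls and 9151 to 10388 CPM in the mutants. The part of these markers in the Itga10 and Itga11 values was not tested.

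Among the receptors for the RGD tripeptide of fibronectin and related ligands, Itgav rose slightly, from 112.5, 112 and 109 CPM to 138.2, 145 and 122 CPM (log2 fold change 0.28, SE 0.08, adjusted p = 0.0204). The groups of Itgav did not overlap, but the call was lost without control replicate 2 (adjusted p = 0.059), control replicate 3 (0.0746) or mutant replicate 2 (0.0745). Itga5, the fibronectin receptor subunit, stood at 134.5, 157 and 148 CPM in the controls and 141.5, 141.1 and 136 CPM in the mutants (-0.07, SE 0.07, adjusted p = 0.473). Itga8, a nephronectin receptor of mesenchyme, stood at 72.3, 103 and 117 CPM and at 119.6, 133 and 113 CPM (0.32, SE 0.17, adjusted p = 0.157). Control replicate 1 was low for Itga8 and the remaining libraries overlapped.

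The beta subunits with the highest levels fell. Itgb1, the partner of most alpha subunits, had the highest CPM per kilobase of all beta subunits, and went from 701, 826 and 798.5 CPM to 618, 667 and 654 CPM (log2 fold change -0.26, SE 0.09, adjusted p = 0.0451). Its groups did not overlap, yet the call was lost under 11 of 18 alternatives, among them every omission of a single library except control replicate 1. Without control replicate 2, control replicate 3 or mutant replicate 1, 2 or 3 the adjusted p of Itgb1 was 0.144, 0.132, 0.0868, 0.09 and 0.1. Itgb5, which pairs with Itgav as a vitronectin receptor, went from 409, 479.7 and 451 CPM to 314, 367.5 and 373 CPM (-0.34, SE 0.10, adjusted p = 0.0241). The Itgb5 groups did not overlap either, and its call was lost without control replicate 2 (adjusted p = 0.0811), control replicate 3 (0.0697) or mutant replicate 2 (0.0526). In per-kilobase shares of the beta class, Itgb1 held 58.0 ± 0.536% and then 53.6 ± 1.09%, Itgb5 38.4 ± 0.558% and then 33.5 ± 2.55%, and Itgb4 2.41 ± 0.741% and then 10.4 ± 3.44%.

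The other Itgav partners were scarce. Itgb6, an epithelial subunit that activates TGF-beta, rose from 1.41, 1.03 and 1.49 CPM to 7.85, 2.64 and 3.28 CPM (1.81, SE 0.44, adjusted p = 0.0133). Mutant replicate 1 was far above the other mutants for Itgb6, and without it the log2 fold change was 1.18, still called. Itgb8, which also activates TGF-beta, stood at 6.86, 3.18 and 4.03 CPM in the controls and 8.03, 7.6 and 6.74 CPM in the mutants (0.67, SE 0.29, adjusted p = 0.0964). Control replicate 1 of Itgb8 lay within the mutant range, and without that library the gene was called higher (1.03, adjusted p = 0.00669). Limma-voom also called Itgb8 (adjusted p = 0.0498).

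Itga9, a receptor for tenascin and other ligands, fell, with 74.7, 88.7 and 84.2 CPM in the controls and 43.9, 63.1 and 57.8 CPM in the mutants, that is from 82.5 ± 7.14 to 54.9 ± 9.88 CPM (log2 fold change -0.59, SE 0.14, adjusted p = 0.0115). Every mutant was below every control, and Itga9 was the only member called lower under every omission of a single library. Itga4, its closest relative, is carried by leukocytes and neural crest cells and binds VCAM1 and fibronectin. It stood at 36.5, 23.2 and 21.8 CPM in the controls and 24.5, 26.6 and 22.4 CPM in the mutants (-0.15, SE 0.20, adjusted p = 0.578). Control replicate 1 was the highest library for Itga4, and without it the log2 fold change was 0.11. Beside the macrophage and leukocyte markers, Itga4 was lower by 1.60 on the log2 scale in the mutants, and the part of those markers was not tested.

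Genes of the same pathway outside the families were counted from lists. Of 27 other basement membrane genes, 14 were called higher and 1 lower (median 0.50), against 24.1% and 21.7% of all tested genes. Besides Col17a1, the rises with the smallest p were Col4a5 (1.15, SE 0.11) and Col4a6 (1.31, SE 0.13), the paired collagen IV chains of epithelial basement membranes, and Col7a1, the anchoring fibril collagen that binds laminin-332 (1.65, SE 0.25). Smoc1, a calcium-binding matrix protein, was the one that fell (-1.39, SE 0.23). Of 16 laminin receptors and binders that are not integrins, 4 (25%) were called higher and 1 (6.25%) lower (median 0.11). Dag1, dystroglycan, rose by 0.68 (SE 0.07), and Sdc4, Cd151 and Bcam by 0.73 (SE 0.08), 0.59 (SE 0.11) and 0.90 (SE 0.21). Large, a glycosyltransferase that equips dystroglycan to bind laminin, fell by 0.26 (SE 0.08).

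Ligands of the integrins that do not bind laminin moved both ways. Of 23 tested, 10 (43.5%) were called higher and 2 (8.7%) lower (median 0.34), against 24.1% and 21.7% of all tested genes. Cdh1, E-cadherin, the ligand of the Itgae and Itgb7 pair, rose by 1.96 (SE 0.21) and is itself in the epithelial list. Icam1, the ligand of the Itgal and Itgb2 pair, rose by 0.88 (SE 0.11), Vwf, a platelet ligand, by 1.16 (SE 0.19), and Nov, a matricellular ligand, by 1.58 (SE 0.25). The bone matrix ligands Ibsp (-5.51, SE 1.08, adjusted p = 0.0057) and Spp1 (-3.50, SE 1.10, adjusted p = 0.0348) fell, and both are also in the osteoblast list.

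Of 30 focal adhesion genes, which couple integrins to actin, 9 (30%) were called higher and 5 (16.7%) lower (median 0.13). These shares were near those of all tested genes, 24.1% and 21.7%. Ptk2b, a kinase abundant in blood cells, rose by 2.14 (SE 0.28) and Fermt3, the kindlin of blood cells, by 1.24 (SE 0.23). Pxn, paxillin, and Lpp, a zyxin relative, rose by 0.45 (SE 0.07) and 0.42 (SE 0.09). The falls with the smallest p were Lims1 (-0.39, SE 0.06), Ptk2, the focal adhesion kinase (-0.28, SE 0.07), Tenc1 (-0.26, SE 0.07) and Tln2 (-0.30, SE 0.08). Zyx (0.35, SE 0.11) and Actn4 (0.31, SE 0.08) were among the 9 called higher. The remaining 16 genes, with Tln1 (0.16, SE 0.13) and Ilk (0.02, SE 0.09) among them, were not called.

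Of the 18 members that rose, 13 kept the call under all 18 alternatives: Lama3, Lama5, Lamb3, Lamc1, Itga1, Itga2b, Itga3, Itgal, Itgam, Itgax, Itgb2, Itgb4 and Itgb7. None of the 4 that fell did so. Whether the counting used strand is not stated. In GENCODE, exons of Itga4, Itga7, Itga8, Itgad, Itgav, Itgb4, Lama2, Lama3 and Lamc3 overlap a gene on the opposite strand. Exons of Itga1, Itga10 and Itgam overlap a predicted gene on their own strand, and those of Itgad a predicted pseudogene. Reads of these overlapping genes may not be separable.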

How the data were processed

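RNA of 3 control and 3 mutant libraries was measured. Each deposited file holds the whole-number counts of 1 library by gene symbol. Per the submitters' processing notes, HISAT2 and StringTie were used (no version named), and both mm9 and mm10 are listed as builds. The counting tool and its annotation, and whether strand was used, were not given in the sources used here. Groups and replicate numbers came from the titles and genotype labels. Among low counts (5 to 50), 99.7% were even in mutant replicate 1 and 63.6% to 73.0% in the other libraries, so counts may come in pairs and are then not independent reads.

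The counts went unchanged into edgeR 4.0.16 under R 4.3.3 (filterByExpr, TMM, quasi-likelihood F test, no covariate, threshold 0.05) on the whole table. The SE is the size of the log2 fold change over the root of its F statistic. The fit was tested on simulated counts. The main alternatives were DESeq2 1.42.0, limma-voom 3.58.1, other scalings and filters, and the omission of each library.

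The members and gene lists were chosen with earlier results of these data known. Members reaching 1 CPM in either group were given in full, except that some genes are not reported here. From each pathway list, up to 4 called genes per direction with the smallest p were named, and from each marker list the 3 highest genes and those at 0. Other genes named from lists were chosen after their values were seen. Exon lengths and overlaps are those of GENCODE M21 on GRCm38, where 37 of 37 members were found by symbol. Promoter sequences are from RefSeq on GRCm38.p6.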

Additional observations from a re-analysis of the deposited data

How the results depend on the processing

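The count of members called higher was 15 to 19 under 18 alternatives and 16 to 19 when 1 library was left out. The count called lower was 4, between 1 and 4 with 1 library left out, and 0 with the mean level of the Y-linked genes as a covariate, a fit in which 5018 of all genes were called. Of 4 Y-linked genes, 3 were higher in every mutant than in every control and none was called. That covariate also ended the calls of Itga2, Itga6, Itga9, Itga10, Itgav, Itgb1, Itgb5 and Itgb6 (adjusted p 0.0896 for Itga6 to 0.417 for Itga10). In the same fit Itga7 (1.15, adjusted p = 0.0219) and Lamb2 (0.55, adjusted p = 0.042) were newly called higher. With the replicate block 7022 genes, 17 higher and 3 lower members were called. Deviations from the group mean correlated at 0.081, 0.082 and 0.02 for same-numbered libraries and at -0.092 to 0.048 for differently numbered ones. With 3 libraries a group, these values cannot show whether same-numbered samples share more than a number. The cause of each change was not tested.

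Members that were not called changed sign. Itga11 was -0.16 and Itga4 was 0.11 without replicate 1 of both groups. With scaling by library size alone Itga5 was 0.0, Itgae 0.04, Itgb3 0.03 and Lamc3 0.03. With the covariate they were 0.06, 0.14, 0.12 and 0.8. With upper quartile scaling Itgae was 0.01, and with libraries thinned to equal depth Itgb3 was 0.02. With centred GC and length terms Itga4 was 0.02 and Lamc3 0.0. With 1 library left out, Itga4 ran from -0.29 to 0.11, Itgae from -0.46 to 0.27, Itgb3 from -0.14 to 0.04, Lama4 from -0.02 to 0.08 and Lamc3 from -0.43 to 0.34. Of 646 member values, 578 kept direction and side of the threshold. Of 110 class share values, 25 moved, all with another gene length. Depth limits Itgad and Itgae most.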

Other observations

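Some members lie side by side in the genome (GENCODE M21, GRCm38), and neighbours moved by different amounts. Itga2 (chr13:114833081-114932100) and Itga1 (chr13:114953096-115101964), on the minus strand, had log2 fold changes of 0.51 and 1.07. Itgam (chr7:128062640-128118491), Itgax (chr7:128129547-128150657) and Itgad (chr7:128154376-128223816) follow each other on the plus strand. Itgam and Itgax were called higher at 1.96 and 2.62, whereas Itgad had 18 counts in all 6 libraries together. The differences between neighbours were not tested.

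Markers of other compartments gave further values for these libraries. Of 14 endothelial markers, 1 (Sox17, 0.65, SE 0.17) was called higher, and their sum was 631 to 839 CPM in the controls and 746 to 992 CPM in the mutants. Of 10 mural cell markers, 2 were called higher, with sums of 640.5 to 705 CPM and 809 to 918 CPM. Of 12 palate mesenchyme markers, 4 were called lower and none higher, with sums of 5835.5 to 6939.5 CPM and 6295.5 to 7143 CPM. Over all tested genes, 24.1% were called higher and 21.7% lower.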
